A study of Mus musculus with 6 samples.

Results

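NF-κB is a family of dimeric transcription factors built from 5 related subunits, and the genes examined here are those 5 subunits together with 5 genes that hold the pathway back or adjust it. They were chosen by symbol, with the Ensembl identifiers of the counts matched to GENCODE gene names, and all 10 were found among the 55416 genes counted. Their RNA was counted in 3 biological replicates each of WT and Oct6 KO EpiLCs, the formative cells reached 48 h after naïve mESCs leave 2i+LIF for N2B27 with KSR, bFGF and Activin A on fibronectin. Both groups derive from the mouse 46C line, in which Sox1 drives GFP, and the KO cells are a single clone with a homozygous insertion in Oct6 (Pou3f1), so that the genotype and the clone cannot be told apart. No NF-κB ligand is named among the additions to either group. Levels are given as CPM, counts scaled to a common library total after TMM normalization. A gene is called at an adjusted p (Benjamini-Hochberg over all genes tested, from edgeR's quasi-likelihood test) below 0.1, the false discovery threshold of the study. The study used DESeq2, and its list of changed genes also required a log2 fold change of at least 1, which a call here does not.

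In the canonical branch, ligands such as TNF and IL-1 or Toll-like receptors act through the kinase IKKβ, IκB proteins are degraded, and dimers of RelA or c-Rel with the processed product of Nfkb1 enter the nucleus. In the non-canonical branch, a subset of TNF-family receptors stabilises the kinase NIK, which acts through IKKα to process the precursor encoded by Nfkb2 and release dimers with RelB. Several of the genes that restrain or carry the pathway, such as Nfkbia, Tnfaip3, Nfkb2 and Relb, are themselves known NF-κB targets, which makes them feedback genes. Mouse ES cells are known for a weak NF-κB response.

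Dimers of this family bind κB sites, the kind of sequence through which feedback is known to act. Matches to the κB consensus before the start sites of the members are therefore shown, without knowledge of which of them act. RefSeq windows of the 250 bases before a transcription start, read on both strands, held 8 of the 10 genes in 11 windows, with Nfkb1 and Relb missing from the table. A match was found in 7 of these windows, belonging to 5 genes, whereas 7.25% of all 32851 windows held at least 1. Several members are known NF-κB targets, windows of the same gene can overlap, and base composition was not matched. The shares are a description and not a test. The first of the 3 Nfkb2 windows had 3 overlapping or neighbouring matches, overlapping ones being counted separately, a number reached by 0.143% of all windows. All 3 Nfkb2 windows lie inside the gene as annotated by GENCODE, which begins at chr19:46292759, and overlap annotated UTRs. The Rel window also lies inside its annotated gene, and the first Tnfaip3 window almost wholly so. These sites therefore lie before RefSeq starts but not before the annotated 5′ end. The octamer ATGCAAAT bound by POU factors was in none of the 11 windows, with 1.6% of all windows holding it. The sites are written 5′ to 3′ along the gene's strand with 5 flanking bases or fewer, capitals marking the matched letters, and were placed on GRCm39 by exact match.
Nfkb2, start 1 (chr19:46293132-46293152, plus strand, beginning 39 bases before the start): gtcacGGGAATTCCCCccctc
Nfkb2, start 1 (chr19:46293160-46293175, plus strand, beginning 11 bases before the start): cgaaaGGGGCTTTCCc
Nfkb2, start 2 (chr19:46293893-46293912, plus strand): cggcaGGAATGTCCCcacaa
Nfkb2, start 3 (chr19:46294139-46294158, plus strand): ttttcGGGACTTTCCtaagc
Rel (chr11:23721046-23721066, minus strand): gcagcGGGAAATCCCCccccc
Nfkbia (chr12:55539447-55539466, minus strand): ggcttGGAAATTCCCcgcgc
Nfkbie (chr17:45866515-45866534, plus strand): aaacaGGGGGATTCCggagg
Tnfaip3 (chr10:18891269-18891288, minus strand): acgcgGGGACACCCCggggc
Tnfaip3 (chr10:18891159-18891175, minus strand): ccatcGGAAATCCCCct
The letters are matches to a consensus, and neither binding nor activity at them was measured.

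Both non-canonical subunits fell in KO EpiLCs, and none of the canonical subunits or of the inhibitors passed the test. Of the 9 members that passed the filter on low counts, 2 were called, Nfkb2 and Relb, each lower in KO cells. This is 22.2% of the members tested, next to 24.3% of all genes tested that were called in either direction and 12.5% that were called lower, so that the number of calls among the members is not above the background. Of the called members, 1 was past an absolute log2 fold change of 1, Nfkb2, next to 6.21% of all genes in either direction and 3.3% with a log2 fold change of −1 or less. The median log2 fold change was −0.19 over the 9 members and 0.0014 over all genes. The members lie on chromosomes 3, 7, 10, 11, 12, 17 and 19, whose median log2 fold changes ran from −0.03 to 0.04.

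**Figure D1:**
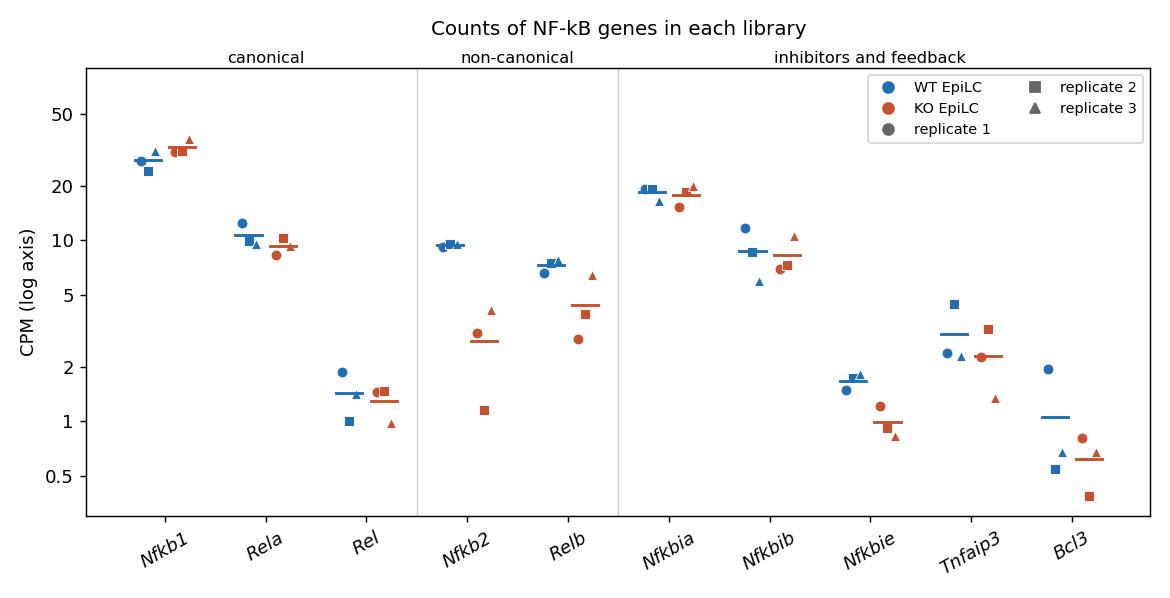
CPM of the 10 genes in each library on a log axis, WT EpiLCs in blue and KO EpiLCs in orange, with the symbol giving the replicate and the line the group mean. The WT and KO libraries are apart for Nfkb2, Relb and Nfkbie and overlap for the other genes.

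Nfkb2 encodes the precursor of the p52 subunit and is the substrate processed in the non-canonical branch (ENSMUSG00000025225.16, chr19:46292759-46303812 of GRCm39, plus strand). It had 9.25, 9.58 and 9.61 CPM in WT replicates 1 to 3, from 124, 105 and 142 counts, and 3.08, 1.16 and 4.14 CPM in KO replicates 1 to 3, from 38, 15 and 55 counts. Every KO library was below every WT library, and the KO libraries were spread more widely than the WT libraries. In means, 9.48 ± 0.196 CPM (SD, n = 3) stood against 2.79 ± 1.51 CPM, a 3.38-fold lower level with a log2 fold change of −1.76 (standard error 0.29, 95% interval −2.37 to −1.15, adjusted p = 2.5e-04 in edgeR's quasi-likelihood fit). The size of the change depended on KO replicate 2, which held the fewest counts: without it the log2 fold change was −1.39, and without KO replicate 3 it was −2.17. In edgeR the adjusted p stayed at or below 0.0020 whichever library was left out.

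The genes around Nfkb2 on chromosome 19 that could be tested did not share its change. Within 1 Mb of its start, 38 other genes were tested, and 2 of them were called, both higher in KO cells, next to 24.3% of all genes called. The median log2 fold change of the 38 genes was −0.03, and the lowest value was −0.31, that of Ina, which did not pass the test. The nearest gene before it, Gbf1, had a log2 fold change of 0.22 (adjusted p = 0.290 in edgeR), and the nearest after it, Fbxl15, one of −0.12 (adjusted p = 0.785 in edgeR). Exons of genes on the opposite strand, Psd at the 3′ end and the lncRNA 4833438C02Rik at the 5′ end, cover 3014 of the 7901 exonic bases of Nfkb2. Psd had 0.863 ± 0.280 CPM in WT and 0.314 ± 0.289 CPM in KO EpiLCs, and 4833438C02Rik 0.601 ± 0.126 and 0.260 ± 0.119 CPM, levels too low to be tested. Both were lower in the KO library of all 3 pairs, the direction of Nfkb2, with groups apart for 4833438C02Rik and overlapping for Psd. Whether reads of these genes and of Nfkb2 were counted apart was not tested. The paper describes stranded libraries, but whether the counting used the strand is not given in the sources used here. In these files 132 of 209 genes whose exons lie wholly inside those of a well-counted gene (at least 1000 counts) on the opposite strand had a count, against 108 of 454 such genes on the same strand. At 10 counts or more the numbers were 55 of 209 and 82 of 454. What this means for the counts of Nfkb2 was not tested.

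**Figure D2:**
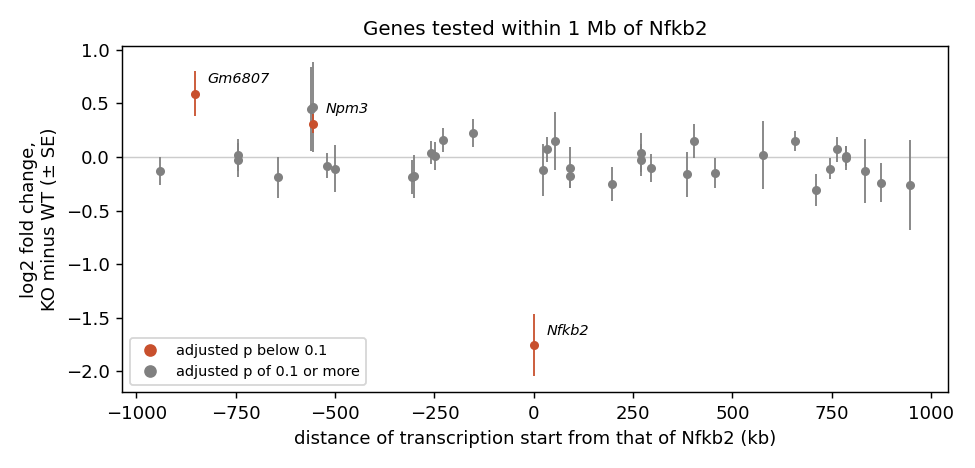
Log2 fold change (KO EpiLCs minus WT EpiLCs, bars of 1 standard error) of the genes tested within 1 Mb of Nfkb2, against the distance of their transcription start from that of Nfkb2 in kb. Nfkb2 stands at −1.76, and the other 38 genes lie between −0.31 and 0.59.

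Relb encodes the transactivating partner of p52 (ENSMUSG00000002983.18, chr7:19339017-19363425, minus strand). WT replicates 1 to 3 had 6.64, 7.48 and 7.78 CPM and KO replicates 1 to 3 had 2.84, 3.93 and 6.47 CPM. The groups did not overlap, which held for 33.7% of all genes tested, but KO replicate 3 lay just below WT replicate 1. The means of 7.30 ± 0.590 CPM (SD, n = 3) and 4.41 ± 1.86 CPM gave a 1.65-fold lower level in KO cells and a log2 fold change of −0.72 (standard error 0.25, 95% interval −1.25 to −0.19, adjusted p = 0.055 in edgeR's quasi-likelihood fit). Its call was lost on leaving out replicate 2 or 3 of the WT libraries or replicate 1 or 2 of the KO libraries, with log2 fold changes from −0.71 to −0.49 and adjusted p from 0.109 to 0.233 in the same edgeR test. KO replicate 3 had the highest level of both Relb and Nfkb2 among the KO libraries, whereas the lowest was KO replicate 1 for Relb and KO replicate 2 for Nfkb2. Next to Relb, Clasrp had a log2 fold change of −0.13 (adjusted p = 0.520 in edgeR) and Clptm1 one of −0.27 (adjusted p = 0.077 in edgeR).

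None of the canonical subunits passed the test. Nfkb1, the precursor of the p50 subunit (ENSMUSG00000028163.18, chr3:135290264-135397742), had 27.6, 24.2 and 31.2 CPM in WT replicates and 30.9, 31.2 and 36.3 CPM in KO replicates. It was higher in the KO library of each of the 3 pairs of replicates, with a log2 fold change of 0.24 (standard error 0.13, 95% interval −0.03 to 0.51, adjusted p = 0.221 in edgeR), and the groups overlapped. Rela, the main transactivating subunit of the canonical branch (ENSMUSG00000024927.9, chr19:5687493-5698161), had 12.5, 9.95 and 9.61 CPM in WT replicates and 8.34, 10.3 and 9.33 CPM in KO replicates. Its groups overlapped as well, and its log2 fold change was −0.19 with a 95% interval of −0.56 to 0.18 (adjusted p = 0.516 in edgeR). Rela lies on the same chromosome as Nfkb2. Rel, which encodes c-Rel and is best known from lymphocytes (ENSMUSG00000020275.10, chr11:23686847-23721264), was near the lower end of what could be tested, with 1.87, 1.00 and 1.42 CPM in WT replicates and 1.46, 1.47 and 0.978 CPM in KO replicates. Its 95% interval of −0.97 to 0.66 is wide and does not exclude a decrease of almost a log2 unit. By edgeR, 0 of the 3 canonical subunits were called, 0 had an unadjusted p below 0.05, and DESeq2's Wald test called 0.

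**Figure D3:**
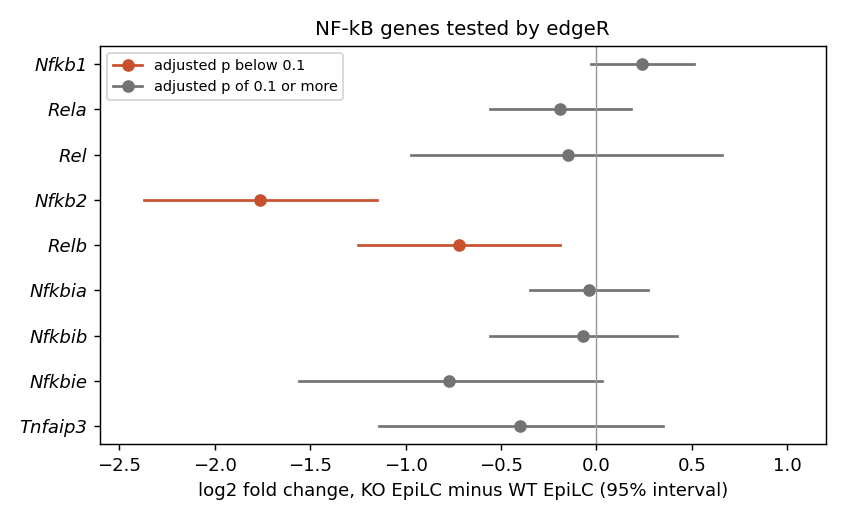
Log2 fold changes (KO EpiLCs minus WT EpiLCs) of the 9 genes tested, with 95% intervals from edgeR's quasi-likelihood fit and the called genes in orange. The intervals of Nfkb2 (−2.37 to −1.15) and Relb (−1.25 to −0.19) lie below 0 and the others include 0.

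Per kilobase of exonic length, which allows levels of different genes to be set side by side, the subunit transcripts of WT EpiLCs ranked Rela (3.26 ± 0.477 CPM per kilobase, SD, n = 3), Nfkb1 (2.15 ± 0.272), Relb (1.44 ± 0.116), Nfkb2 (1.2 ± 0.0248) and Rel (0.184 ± 0.0556), and no neighbours in this order overlapped between libraries. In KO EpiLCs the order was the same, with Rela at 2.85 ± 0.304, Nfkb1 at 2.55 ± 0.234, Relb at 0.868 ± 0.366, Nfkb2 at 0.353 ± 0.191 and Rel at 0.168 ± 0.0360. There Rela and Nfkb1 overlapped, and so did Nfkb2 and Rel. The length counts all annotated exons of a gene and not the isoforms used. The sum of the canonical subunits was 5.60 ± 0.575 in WT EpiLCs and 5.57 ± 0.369 in KO EpiLCs on this scale, while that of the non-canonical subunits was 2.64 ± 0.140 and 1.22 ± 0.498.

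As a share of the subunit transcripts, Nfkb2 and Relb together made up 28.6%, 34.7% and 33.1% in WT replicates 1 to 3 and 15.5%, 13.7% and 23.7% in KO replicates 1 to 3. The share was lower in every KO library than in any WT library, with a difference of −14.5 percentage points between the means. Among the precursors alone, Nfkb2 made up 35.3%, 39.2% and 33.4% of the sum of Nfkb2 and Nfkb1 in WT EpiLCs and 13.9%, 5.69% and 15.7% in KO EpiLCs. Relb made up 24.4%, 31.7% and 32.9% of the sum of Relb, Rela and Rel in WT EpiLCs and 16.9%, 18.8% and 30% in KO EpiLCs, where KO replicate 3 lay among the WT libraries. These shares are combinations of the values above and were not tested. In bulk samples a lower level in every cell and fewer cells with the transcript cannot be told apart.

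**Figure D4:**
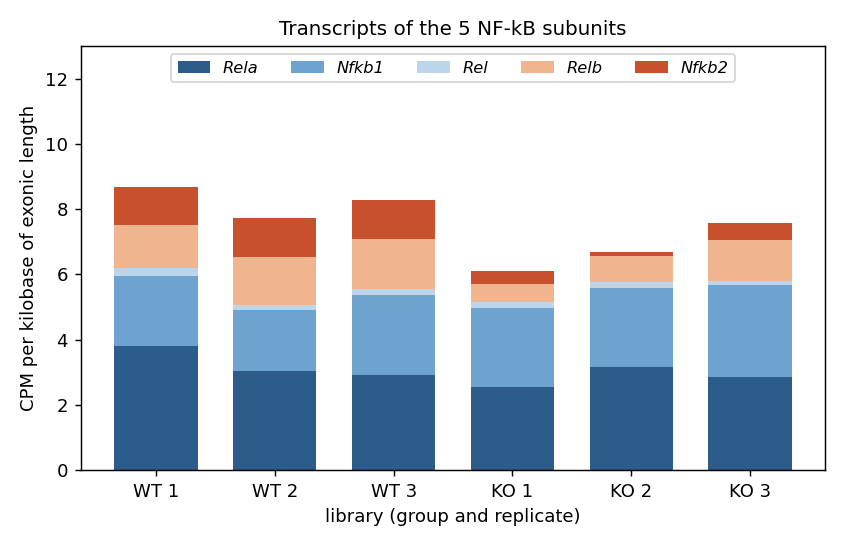
Transcripts of the 5 subunits in each library as stacked bars, in CPM per kilobase of exonic length, with canonical subunits in blue and non-canonical subunits in orange. The blue part is close to 5.6 on average in both groups, and the orange part is 2.48 to 2.75 in WT libraries and 0.920 to 1.80 in KO libraries.

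None of the inhibitors and feedback genes tested passed the test. Nfkbia, which encodes IκBα, the inhibitor that closes the canonical feedback loop (ENSMUSG00000021025.9, chr12:55535332-55539432), was the most abundant member per kilobase, at 9.48 ± 0.799 in WT EpiLCs and 9.22 ± 1.23 in KO EpiLCs. It had 19.3, 19.3 and 16.6 CPM in WT replicates and 15.2, 18.5 and 19.9 CPM in KO replicates, a log2 fold change of −0.04 with a 95% interval of −0.35 to 0.27 (adjusted p = 0.907 in edgeR). Nfkbib, which encodes IκBβ (ENSMUSG00000030595.16, chr7:28457486-28466937), ran from 5.95 to 11.7 CPM over the WT libraries and from 6.97 to 10.6 CPM over the KO libraries. Its spread within groups was larger than the difference between them (log2 fold change −0.07, adjusted p = 0.883 in edgeR).

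Nfkbie, which encodes IκBε (ENSMUSG00000023947.9, chr17:45866585-45874661), had 1.49, 1.73 and 1.83 CPM in WT replicates and 1.22, 0.926 and 0.827 CPM in KO replicates. The groups did not overlap, as for 3 of the 9 members tested and 33.7% of all genes tested, but its log2 fold change of −0.77 (standard error 0.38, 95% interval −1.56 to 0.03) did not pass the test, with an adjusted p of 0.187 in edgeR. At 11 to 27 counts per library its precision was limited by depth. Tnfaip3, which encodes the ubiquitin-editing enzyme A20, an inhibitor induced by NF-κB (ENSMUSG00000019850.12, chr10:18874201-18891405), had 2.39, 4.47 and 2.30 CPM in WT replicates and 2.27, 3.24 and 1.35 CPM in KO replicates. Replicate 2 was the highest of each group, and the groups overlapped (log2 fold change −0.40, 95% interval −1.14 to 0.35, adjusted p = 0.503 in edgeR). The log2 fold change of Tnfaip3 was −0.04 without WT replicate 2, −0.12 without KO replicate 3 and −0.74 without KO replicate 2. Bcl3, an IκB-like nuclear cofactor of p50 and p52 (ENSMUSG00000053175.18, chr7:19541553-19557570), had 26, 6 and 10 counts in WT replicates and 10, 5 and 9 counts in KO replicates. It did not pass the filter on low counts, and its highest value was that of WT replicate 1, with 1.94 CPM against 0.386 to 0.810 CPM in the other 5 libraries. Of the 4 genes tested in this group, edgeR called 0, with 0 at an unadjusted p below 0.05, and DESeq2's Wald test called 0.

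The pathway upstream of the subunits was examined with lists of kinases, adaptors, other negative regulators, ligands and receptors, and the lists together with known targets held 89 genes. Of these, 66 passed the filter on low counts and 20 were called, 14 lower and 6 higher in KO EpiLCs. That is 30.3% of those tested, next to 24.3% of all genes. The median log2 fold change was −0.10.

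**Figure D5:**
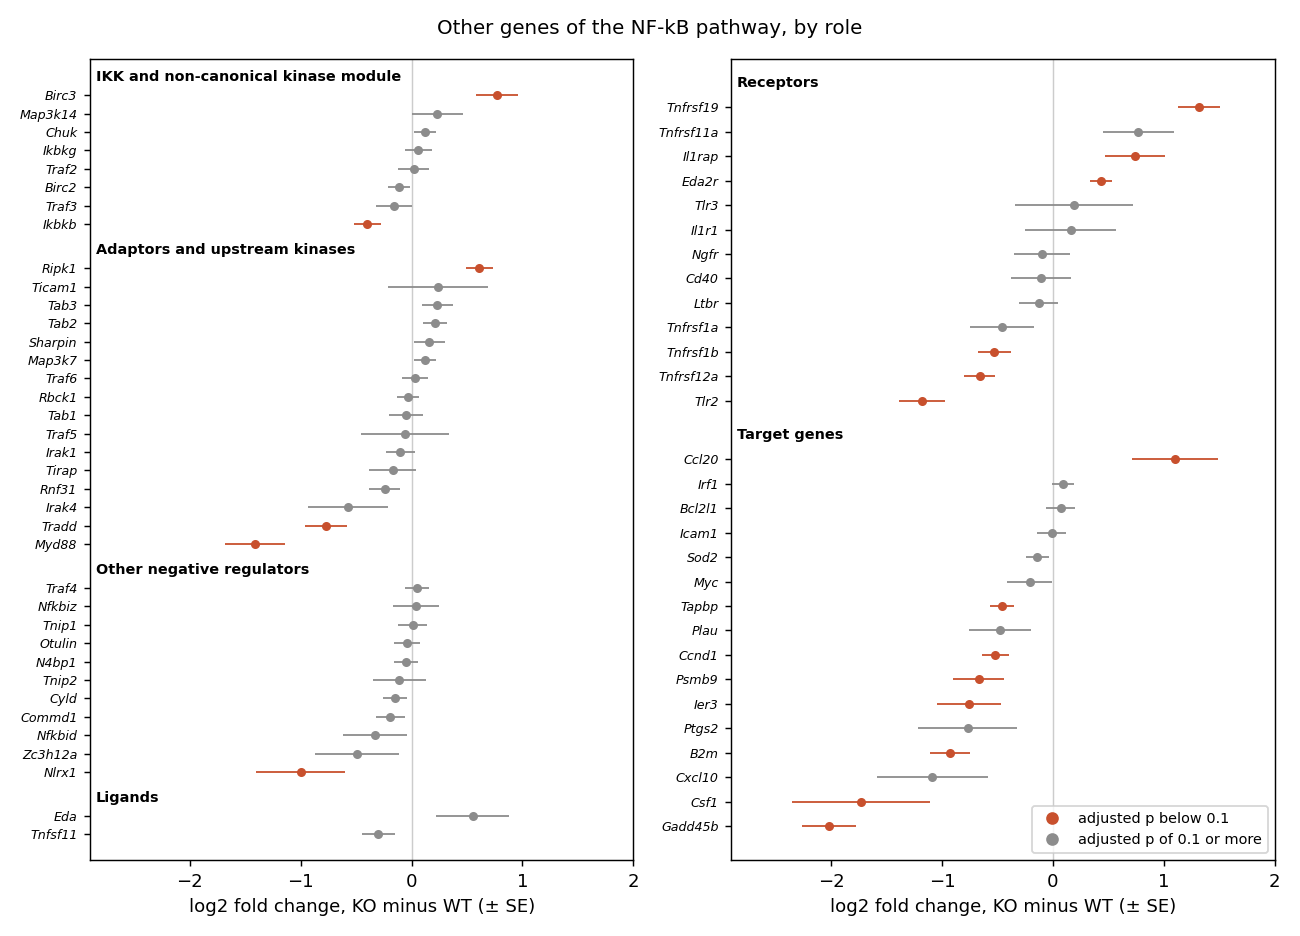
Log2 fold changes (KO EpiLCs minus WT EpiLCs, bars of 1 standard error) of the 66 other pathway genes tested, grouped by role, with the called genes in orange. The receptors and targets reach from −2.02 (Gadd45b) to 1.32 (Tnfrsf19), and the kinase module from −0.40 (Ikbkb) to 0.77 (Birc3).

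The kinases that act on the Nfkb2 product did not pass the test. Chosen for their role after their values were seen, Map3k14, which encodes NIK, had 5.30 ± 0.901 CPM in WT and 6.23 ± 1.43 CPM in KO EpiLCs (log2 fold change 0.23, 95% interval −0.25 to 0.70, adjusted p = 0.556 in edgeR), and Chuk, which encodes IKKα, had 131 ± 10.2 and 143 ± 9.43 CPM (log2 fold change 0.12, 95% interval −0.09 to 0.33, adjusted p = 0.463 in edgeR). Traf3, Traf2 and Birc2, parts of the complex that keeps NIK low, had log2 fold changes of −0.16, 0.02 and −0.11, none of which passed the test. Of the 8 genes of this list, 2 were called in opposite directions, or 25%, next to 24.3% of all genes. Birc3, a ubiquitin ligase of the same complex and itself an NF-κB target, rose from 6.45 ± 0.972 to 10.9 ± 1.39 CPM (log2 fold change 0.77, adjusted p = 0.0070 in edgeR). Ikbkb, which encodes IKKβ of the canonical branch, fell from 32.6 ± 0.761 to 24.8 ± 0.505 CPM (log2 fold change −0.40, adjusted p = 0.021 in edgeR).

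Among 16 adaptors and upstream kinases, 3 were called, or 18.8%, next to 24.3% of all genes. Myd88, the adaptor of Toll-like and IL-1 receptors, fell from 5.54 ± 1.09 to 2.08 ± 0.452 CPM (log2 fold change −1.41, adjusted p = 0.0010 in edgeR). Tradd, the adaptor of TNF receptor 1, fell from 12.2 ± 1.99 to 7.08 ± 0.915 CPM (log2 fold change −0.77, adjusted p = 0.0059 in edgeR), whereas Ripk1, the kinase recruited to the same receptor, rose from 22.6 ± 0.717 to 34.4 ± 1.46 CPM (log2 fold change 0.61, adjusted p = 0.0011 in edgeR). Of 11 other negative regulators, 1 was called, or 9.09%, which is below the 24.3% of all genes. It was Nlrx1, at 1.66 ± 0.264 and 0.833 ± 0.202 CPM (log2 fold change −1.0, adjusted p = 0.090 in edgeR). The call of Nlrx1 was lost with any of the 6 libraries left out, and DESeq2 gave an adjusted p of 0.238.

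Most ligands were scarcely counted. Of 12 listed, 2 were tested, and edgeR called 0 of them, with 0 at an unadjusted p below 0.05 and 0 called by DESeq2. The more abundant was Tnfsf11, which encodes RANKL, at 16.9 ± 1.2 CPM in WT and 13.8 ± 1.36 CPM in KO EpiLCs (log2 fold change −0.30, adjusted p = 0.198 in edgeR). Lta, Cd40lg and Tnfsf14 had no count in any library, which allows up to 0.0766 CPM over the WT libraries and 0.0777 CPM over the KO libraries by counting error alone. Tnf had 3 counts in WT replicate 1 and none elsewhere.

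Receptors moved in both directions, with 3 lower and 3 higher in KO EpiLCs among 13 tested of 16. The calls were 46.2% of those tested, next to 24.3% of all genes, and DESeq2 made 5. Tlr2, a receptor for bacterial lipopeptides, fell from 8.59 ± 0.728 to 3.78 ± 0.524 CPM (log2 fold change −1.18, adjusted p = 5.1e-04 in edgeR). Tnfrsf12a, the TWEAK receptor, which is known to engage the non-canonical branch, fell from 27.1 ± 1.79 to 17.2 ± 2.01 CPM (log2 fold change −0.66, adjusted p = 0.0019 in edgeR), and Tnfrsf1b, TNF receptor 2, from 16.9 ± 1.07 to 11.7 ± 1.10 CPM (log2 fold change −0.53, adjusted p = 0.019 in edgeR). Tnfrsf19, an orphan receptor of the TNF family, rose from 7.36 ± 1.08 to 18.4 ± 3.76 CPM (log2 fold change 1.32, adjusted p = 5.4e-05 in edgeR), and Eda2r, a receptor for an ectodysplasin isoform, from 187 ± 5.86 to 253 ± 18.2 CPM (log2 fold change 0.43, adjusted p = 0.0029 in edgeR). Il1rap, the IL-1 coreceptor, had a log2 fold change of 0.74 (adjusted p = 0.067 in edgeR) and lies on chromosome 16, whose genes had a median of 0.55. Its call was lost without replicate 2 or 3 of the WT libraries or replicate 1 or 3 of the KO libraries, and DESeq2 did not make it. Tnfrsf11a, the receptor for RANKL, had a log2 fold change of 0.77 with an adjusted p of 0.112 in edgeR, and of 0.058 with the replicate number as a block.

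Of 26 known NF-κB targets outside the members 16 were tested, and 7 were called lower and 1 higher in KO EpiLCs, next to 12.5% and 11.8% of all genes. These calls were 50% of those tested, next to 24.3% of all genes, and DESeq2 made 5. Birc3, described above, is a further target that was called higher and was counted with the kinase module. Their median log2 fold change was −0.50, compared with 0.0014 over all genes, and this list was put together with earlier results of these data known. The largest decrease was that of Gadd45b, a stress-induced gene that curbs JNK signalling, from 7.91, 13.5 and 9.67 CPM in WT replicates to 2.51, 2.16 and 2.93 CPM in KO replicates (log2 fold change −2.02, standard error 0.24, adjusted p = 1.3e-05 in edgeR). B2m, the invariant chain of MHC class I, fell from 14.4 ± 0.154 to 7.54 ± 1.57 CPM (log2 fold change −0.93, adjusted p = 9.3e-04 in edgeR). Psmb9, a subunit of the immunoproteasome, fell by 0.67 on the log2 scale, and its call was lost without replicate 2 of the WT libraries or replicate 2 or 3 of the KO libraries. Csf1, a macrophage growth factor, had a log2 fold change of −1.73 at 1 to 30 counts per library, and Ier3, an early response gene, one of −0.76, and both had overlapping groups. Leaving out 1 library moved the log2 fold change of Csf1 between −3.06 (without KO replicate 3) and −1.27 (without KO replicate 1), and that of Ier3 between −1.04 (without KO replicate 3) and −0.40 (without WT replicate 2). The call of Csf1 was lost without replicate 1 or 3 of the WT libraries or replicate 1 or 2 of the KO libraries, and that of Ier3 without replicate 2 of the WT libraries or replicate 1 or 2 of the KO libraries, and DESeq2 called neither. Ccl20, a chemokine, was the one gene of this list called higher, at 0.872 ± 0.292 and 1.84 ± 0.128 CPM (log2 fold change 1.10, adjusted p = 0.059 in edgeR), but its call held in 1 of the 6 fits that left out a library and was not made by DESeq2. The remaining 8 targets tested were not called. The most abundant of them were Irf1 at 158 ± 13.9 and 168 ± 5.95 CPM (log2 fold change 0.09), Sod2 at 102 ± 7.54 and 92.8 ± 7.91 CPM (−0.14) and Icam1 at 28.6 ± 2.53 and 28.4 ± 3.62 CPM (−0.01). Many of the inflammatory targets that mark strong activation were scarcely counted, and Il6, Csf2, Ccl5 and Bcl2a1b had no count in any library.

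The genes whose log2 CPM followed that of Nfkb2 most closely over the 6 libraries, among 13227 genes compared, were Susd2, Retreg1, Frk, Abca3 and Cyp3a13, with Pearson's r from 0.994 to 0.999 as a description, each being lower in all 3 KO libraries and lowest in KO replicate 2. Susd2 did not pass the test (log2 fold change −0.35, adjusted p = 0.426 in edgeR), and the other 4 did, with log2 fold changes from −0.98 to −0.71. Among the members, Nfkbie (r = 0.80) and Relb (r = 0.77) followed Nfkb2 most closely, and Nfkb1 (r = −0.48) and Rel (r = −0.05) had the opposite sign. Relb ranked only 1573 among the genes compared, and Nfkbie was too low to be among them. These points share their libraries and a difference between groups, so that genes lower in KO cells reach a high r.

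The libraries held 10995505 to 14680930 counts. Markers of the labelled cells were abundant in every library, Pou5f1 at 751 to 940 CPM and Dnmt3b at 1280 to 1640 CPM. Of the 6 listed, 3 were called, all higher in KO EpiLCs: Sox2, Fgf5 and Otx2, with log2 fold changes of 0.42, 0.65 and 0.92. Pou5f1 and Dnmt3b each had one of −0.19 and Utf1 one of −0.01, none of them called. Oct6 itself was at 142 ± 19.4 CPM in WT and 132 ± 7.59 CPM in KO EpiLCs, which does not check the label, since the insertion changes the reading frame and not the presence of the transcript. Of 8 leukocyte and macrophage markers, which matter here because these cells carry high NF-κB activity, 3 were tested and 1 was called and lower (Laptm5, 7.03 ± 2.90 and 4.10 ± 0.947 CPM), the summed level ran from 11.2 to 25.7 CPM in WT libraries and from 10.9 to 12.3 CPM in KO libraries, Cd68 was the most abundant at 8.48 ± 4.30 and 5.61 ± 0.446 CPM (log2 fold change −0.60, not called), and Adgre1 had no count and Lyz2 a single count. The 7 fibroblast markers summed to 11.2 to 20.2 and 7.41 to 12.6 CPM, with 3 tested and 1 called and lower (Thy1). The most abundant of them were Dcn at 7.98 ± 3.61 and 5.40 ± 2.43 CPM and Col1a2 at 3.30 ± 1.74 and 1.93 ± 0.786 CPM, both not called and lower in the KO library of all 3 pairs, while Postn had a single count and Col1a1 26 counts in all. The 6 extraembryonic endoderm markers summed to 3.04 to 4.29 and 3.32 to 9.70 CPM, with 2 tested and 1 called and higher (Gata6). Among those too low to be tested, Afp was lower in KO EpiLCs (0.649 ± 0.167 and 0.0797 ± 0.081 CPM) and Foxa2 higher (0.283 ± 0.0855 and 0.698 ± 0.297 CPM), with groups apart. The share of calls over all genes tested was 24.3%. WT replicate 1 had the highest sums of the leukocyte and the fibroblast markers, and the part of these in the results was not tested beyond leaving it out, which gave −1.78 for Nfkb2 and −0.79 for Relb on the log2 scale.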

How the data were processed

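RNA-seq was performed on 3 WT EpiLC and 3 Oct6 KO EpiLC libraries. The authors removed adapters and low-quality ends (Fastp), aligned the reads with STAR to GRCm39 and deposited the gene counts of each library without normalization. The STAR version, the annotation and the treatment of multimapping reads are not given in the sources used here. Identifiers were matched to GENCODE M39 on GRCm39 (54749 matched and 667 not). Counts were tested in R 4.3.3 with edgeR 4.0.16: TMM scaling, filterByExpr with a minimum count of 10 (15746 genes left), quasi-likelihood test on genotype alone, Benjamini-Hochberg adjustment over all genes, threshold 0.1. Standard errors were derived from the F statistic, and intervals use its degrees of freedom. Per-kilobase levels divide CPM by the union of annotated exons. Upstream sequences came from RefSeq windows (GRCm38.p6) and were matched exactly to GRCm39.

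The series' design text calls the replicates paired. Deviations from the group means over 13701 genes, which are not independent replicates, correlated at 0.232, 0.291 and 0.119 between libraries with the same number and at −0.217 to −0.0250 between others. Because the deviations are centred within each group, positive values at the same number push the others below 0, and these are not separate evidence. Following the design text, the numbers were read as pairs in comparisons by pair and in a replicate block fitted as an alternative. The main fit did not use them, so its adjusted p values and intervals ignore the pairing. Other alternatives were DESeq2 1.42.0, RLE size factors, unscaled library totals, a minimum of 10 counts in every library or no minimum, an adjusted p threshold of 0.05 and leaving out each library. The members, lists and tests were chosen with earlier results of these data known. Named were all members, the list genes called (the 6 largest changes where more were called) or else the most abundant gene tested, markers, genes next to called members changed by at least 1 on the log2 scale (those next to Relb were added), and the 5 genes most correlated with Nfkb2 among those with an average log2 CPM of at least 1. The most abundant uncalled targets were also named. Replicates differed beyond sampling noise, with a chi-square per degree of freedom of at least 6.94. Counting limits cover counting error only.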

Additional observations from a re-analysis of the deposited data

How the results depend on the processing

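The decrease of Nfkb2 kept its direction and its call in all 13 alternatives, with log2 fold changes from −2.17 to −1.39 when each library was left out in turn. Relb kept its direction in all 13, from −1.10 to −0.49 with a library left out, and 2 of the members were called as reported but 1 at an adjusted p below 0.05, where Relb (−0.72) was lost, and 1 to 2 with each library left out; the cause was not tested. The members without a call gained none, but the sign of 3 changed when a library was left out: Rel ran from −0.34 to 0.08 (reversed without WT replicate 1 at 0.08 and without KO replicate 3 at 0.02), Nfkbia from −0.12 to 0.06 (reversed without KO replicate 1 at 0.06) and Nfkbib from −0.29 to 0.21 (reversed at 0.21 without WT replicate 1, 0.04 without KO replicate 1 and 0.01 without KO replicate 2). The non-canonical share changed by −17.5 to −12.5 percentage points with a library left out, and by −24.2 among the precursors alone. The replicate block left the calls of the members as they were, with Nfkb2 at −1.80 (adjusted p = 2.0e-06 from edgeR) and Relb at −0.76 (adjusted p = 0.0090 from edgeR), and gave 4764 genes called in place of 3833 over all genes tested and 22 pathway genes in place of 20, with Tnfrsf11a and Cxcl10 added (adjusted p of 0.087 for Cxcl10 in edgeR). Over all alternatives 15 to 22 pathway genes were called. Of all genes, 978 passed both thresholds, and 584 where at least 10 counts were required in every library, which leaves out genes that are near 0 in a group. Bcl3 had a log2 fold change of −0.77 without the filter (adjusted p = 0.477 from edgeR). Rel, Nfkbie and Bcl3 had 27 counts or fewer in every library, which limits their precision.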
